A study of Mus musculus with 6 samples.

Results

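Interleukin-21 (IL-21) is a cytokine that helper T cells secrete to act on B cells and on other T cells. It binds a receptor made of the IL-21 receptor and the common gamma chain and signals mainly through STAT3. In mouse T cells its gene is best known as a product of follicular helper (Tfh) and Th17 cells, where the transcription factor c-MAF, with IRF4, BATF and NFAT, drives its transcription. The cells described here came from cultures that favour Th9 cells, the helper T cells known for making IL-9, and were chosen because they carried Il21 transcripts.

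The series holds single-cell transcriptomes of mouse T cells cultured under Th9 conditions. Naive CD4+ T cells taken from the spleen of wild-type control mice (3 libraries, called A, B and C) or Cblb-/- mice (3 libraries, called D, E and F) were all grown for 48 h in the presence of IL-4 at 20 ng/ml and human TGF-beta at 3 ng/ml. Interferon-gamma was blocked by an antibody at 20 ug/ml, and the cells were purified on CD4 beads. Cblb encodes CBL-B, a ubiquitin ligase that restrains T cell activation. The labels give neither the age or strain of the mice, nor the deleted part of Cblb, nor whether the libraries of a genotype came from separate mice or cultures. The p-values below therefore measure only how these libraries vary, which may be technical. Members are all knockout cells of the deposited clusters 0 to 5 with a corrected Il21 count of at least 1, and they are called Il21 cells below. There were 1013 of them among 14503 knockout cells and 27258 cells in all: 97 in library D, 44 in E and 872 in F. They were compared within each library with the knockout cells of the same clusters that had no Il21 count, called Il21-zero cells, of which there were 3323 in D, 5620 in E and 4529 in F.

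Levels below are in ppm: the corrected counts of a gene summed over the cells of a class in a library, per 1000000 corrected counts of that class. Median raw depth was 35573 to 39628 UMIs (unique molecular identifiers, counted near the 3' end of transcripts) per cell in the knockout libraries, and total depth 149381789 to 229387950 UMIs. Cblb stood at 30.9 to 32.6 ppm in the wild-type and 15.02 to 18.4 ppm in the knockout libraries, where 3' tags outside the deleted part could still be counted. Cell barcodes that occurred in more than 1 library numbered 76 and covered 152 cells. Of these, 3 were Il21 cells, none of whose barcodes belonged to an Il21 cell of another library.

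Il21 (ENSMUSG00000027718) lies on mouse chromosome 3, 37222759 to 37232636, minus strand (mm10, GENCODE M21), near Il2 (37120523 to 37125959, minus strand). The 250 bases upstream of its annotated start are shown because c-MAF and NFAT are known to act on this gene and Maf leads the results below. They are from RefSeq (GRCm38.p6), chr3:37232637-37232886, read 5′ to 3′ on the minus strand, with matches to the c-MAF half-site TGCTGA and to the NFAT core GGAAA, on either strand, in capitals.
Il21 upstream: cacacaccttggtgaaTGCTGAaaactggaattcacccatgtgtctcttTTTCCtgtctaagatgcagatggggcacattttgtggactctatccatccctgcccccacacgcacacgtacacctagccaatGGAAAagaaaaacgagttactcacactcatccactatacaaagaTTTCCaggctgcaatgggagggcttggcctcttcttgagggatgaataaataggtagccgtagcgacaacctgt
The half-site occurred once, 234 to 229 bases before the start, and 16.1% of 32851 upstream windows of the same length in the reference held it. The NFAT core occurred 3 times, beginning 201, 118 and 74 bases before the start, against a share of 55.6% of windows with a match. Neither the AP-1 motif TGANTCA (6.75% of windows) nor the STAT motif TTCNNNGAA (7.02%) occurred in this window. No motif overlapped another, and these matches are a description of the letters.

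Il21 values chose the cells, so its own levels are given as a description. Library F held most of the cells with Il21. A value of at least 1 was found in 16.1% of its cells in clusters 0 to 5 (95% exact binomial interval, which covers counting error only, 15.2 to 17.2), in 2.84% of cells in D (2.31 to 3.45) and in 0.777% in E (0.565 to 1.04). The 3 knockout libraries did not overlap in these intervals, and the share in F was many times that in E. In the wild-type libraries 12 of 12755 cells had an Il21 count, 0.102%, 0.0465% and 0.132% of the cells of A, B and C, and none of them had a value of 3 or more. Summed over cells the Il21 level was 2.01 ppm in D, 0.461 in E and 10.8 in F, against 0.0122 to 0.052 ppm in the wild-type libraries. Free RNA in droplets gives counts in cells that do not express a gene. Among the 18 knockout cells of deposited cluster 6, which the rule leaves out, none had an Il21 count, which allows a share of up to 16.7%, at a median depth of 24759 UMIs, so that cluster was too small to measure a background share as low as those in D and E.

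Most Il21 cells held few Il21 counts. Of the 1013 cells, 555 (54.8%) had a value of exactly 1, just inside the rule, 174 had 2, 143 had 3 or 4, and 141 had 5 or more; all cells just outside the rule had 0. The highest value was 21 in D, 10 in E and 27 in F. Cells with 5 or more held 50% of the Il21 counts of D, 30.3% of those of E and 46.7% of those of F.

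Il21 cells were found in each of the deposited clusters 0 to 5 of library F. There the share with Il21 was 16.3% in cluster 0, 11.4% in cluster 1, 21.95% in cluster 2, 12.5% in clusters 3 and 4, and 22.6% in cluster 5. Library D had 5.37% in cluster 2 and 2.32%, 2.13% and 4.10% in clusters 0, 1 and 4. It had none in 61 cells of cluster 3 and in 78 of cluster 5. Taken as 3 counts of the cells, these allow up to 4.92% and 3.85%, and the exact binomial intervals end at 5.87% and 4.62%. In library E the share was 2.11% in cluster 2, and between 0.397% (cluster 1) and 1.42% (cluster 4) elsewhere. Cluster 1 thus had a lower share than cluster 2 in each library.

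**Figure D1:**
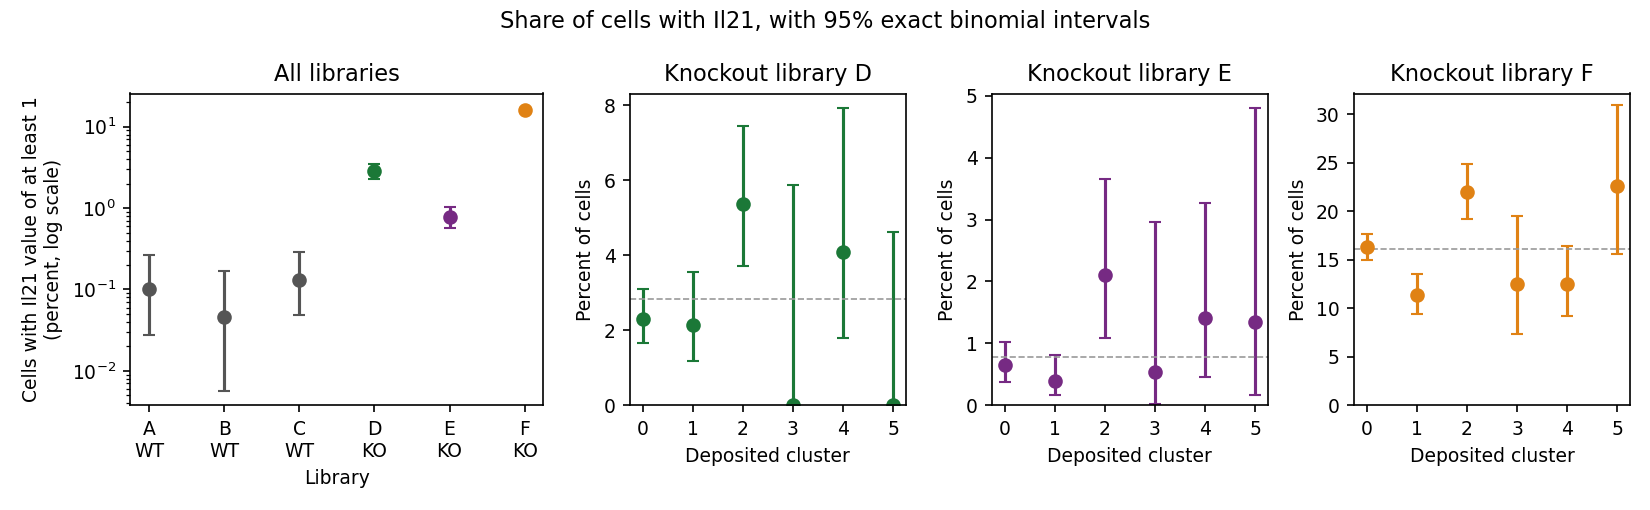
Share of cells with an Il21 value of at least 1, in percent, by library (left, log scale) and by deposited cluster in knockout libraries D, E and F (right, linear scales that differ between panels); bars are 95% exact binomial intervals and dashed lines the share of the whole library. F stands at 16.1%, D at 2.84% and E at 0.777%, and cluster 2 lies above cluster 1 in each of the 3.

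Read the other way, cluster 2 held 34.0% of Il21 cells and 17.5% of Il21-zero cells in D, 27.3% and 9.93% in E, and 21.9% and 14.99% in F. Cluster 1 held fewer Il21 than Il21-zero cells in each library: 14.4% and 19.4% in D, 15.9% and 31.3% in E, 12.4% and 18.6% in F. With 3 pairs of shares the exact two-sided paired permutation test cannot go below p = 0.25, which it gave for both clusters. The authors built these clusters from the same cells, so the shares describe where the cells lie.

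Il21 cells were sequenced more deeply than the others, a difference that moves with every result below and whose part in them is addressed only by the depth subsets given later. Their median raw depth was 41771 against 39579 UMIs in D, 43038 against 35542 in E and 40932 against 39291 in F (exact paired permutation test, p = 0.25). Of the Il21 cells, 14.4%, 18.2% and 8.26% in D, E and F were among the deepest 5% of their library, against 4.72%, 4.91% and 4.37% of Il21-zero cells. The corrected counts had been adjusted to a common depth by the authors. The median mitochondrial share differed little: 5.27% and 5.02% in D, 4.37% and 4.46% in E, 4.79% and 4.69% in F.

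The cells had the transcripts of CD4 T cells. The summed level of Cd3e, Cd3d, Cd3g, Cd4 and Trac was 1069 to 1152 ppm in Il21 cells and 1099 to 1169 in Il21-zero cells. Markers of other cells the culture could hold were low. The 2 CD8 genes summed to 8.33 to 11.9 ppm in Il21 cells and 10.1 to 11.5 in Il21-zero cells, and the 6 B cell genes to 11.8 to 27.9 ppm against 9.06 to 11.4, the highest of these in library E. NK, NKT and gamma-delta T cell genes stayed under 1 ppm in Il21 cells, with Klrb1c and Tcrg-C1 at 0. The mast cell and basophil list stood at 1.61 to 2.38 ppm, against 0.61 to 1.42 in Il21-zero cells, with Mcpt8, Fcer1a, Gata2 and Mcpt1 at 0. Myeloid genes summed to 1.34 to 2.64 ppm against 1.71 to 2.22, and both erythroid genes in the table were at 0. The part of the B cell and mast cell transcripts in the results was not tested.

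The comparison of genes asked what else differed between Il21 cells and the Il21-zero cells beside them. Maf rose most, together with metallothionein, a SLAM receptor, lymphotoxin beta and glycolytic enzymes, and Trat1, an adaptor of the T cell receptor, fell most. Of 8569 genes tested (limma on log2(ppm + 1) with the library as a block, Benjamini-Hochberg adjusted p under 0.05; Il21 left out), 36 rose and 27 fell, which is 0.42% and 0.315% of the genes tested and 0.735% together. The call was tied to how the spread was estimated: 1340 genes had an unadjusted p under 0.05, no gene was called without the library block (490 at an unadjusted p under 0.05) or without a trend in the prior variance (987), and 301 rose and 301 fell with weights for the sums. All 63 called genes differed in the same direction in D, E and F. The difference was smallest in F, which holds most of the cells, for 43 of them and largest in E, which has 44 Il21 cells, for 41. Without E the counts were 229 and 167, without F 159 and 100, and without D 24 and 13. The degrees of freedom, prior included, moved too: 7.93 with all libraries, 16.5 without E, 47.6 without F and 10.2 without D. These counts therefore do not measure how well the remaining libraries agree.

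Maf (chromosome 8, 115682942 to 115707794, minus strand) encodes c-MAF, the factor known to drive Il21 in helper T cells. Its level was 29.6 ppm in Il21 cells and 7.92 in Il21-zero cells of library D, 63.0 and 9.89 in E, and 38.2 and 17.7 in F. The classes did not overlap: the lowest Il21 value, in D, lay above the highest Il21-zero value, in F. The log2 difference was 1.80 (SE 0.23, limma adjusted p = 0.0213), and between 1.06 (F) and 2.56 (E) by library. Cells with any Maf count made up 40.2%, 36.4% and 41.5% of Il21 cells in D, E and F and 14.0%, 16.7% and 25.5% of Il21-zero cells. In each library most Il21 cells thus had no Maf count, and in E, where 16 cells had one, a single cell held 27.4% of the sum. Wild-type libraries A, B and C stood at 18.1, 13.03 and 17.4 ppm over all cells, above the Il21-zero knockout cells of D and E.

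The other large rises lay below 2-fold apart from Mt1. Mt1, a metallothionein that binds zinc and other metals, was 35.7 ppm in Il21 and 13.9 in Il21-zero cells of D, 47.6 and 14.7 in E, and 102 and 70.2 in F, which gave 1.16 on the log2 scale (SE 0.18, limma adjusted p = 0.0314). Library F thus had more Mt1 in its Il21-zero cells than D and E had in their Il21 cells. In D, Mt1 was 44.1 ppm at an Il21 value of 1, 9.49 at 2, 13.9 at 3 or 4 and 45.7 at 5 or more. There 1 cell held 26.3% of the Mt1 counts of the Il21 cells. In E and F each of these steps lay above the Il21-zero cells. Mt1 did not pass with an Il21 value of at least 2 (1.05, limma adjusted p = 0.108). Nor did it pass without the 25% of cells highest in hypoxia genes (0.78, limma adjusted p = 0.457). Ctla2a, which encodes an inhibitor of cathepsin-like proteases, was 119 and 60.0 ppm in D, 138 and 56.4 in E, and 127 and 78.0 in F, which gave 0.98 on the log2 scale (SE 0.10, limma adjusted p = 0.0141), and its classes did not overlap. About 4 in 5 Il21 cells had a Ctla2a count in each library (78.9% to 81.8%), against 51.5% to 65.1% of Il21-zero cells.

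Gatm, the enzyme of the first step of creatine synthesis, was 63.7 and 38.4 ppm in D, 150 and 53.2 in E and 134 and 79.7 in F (log2 difference 0.98, SE 0.13, limma adjusted p = 0.0249, and 0.45 with adjusted p = 0.58 near the median depth). In wild-type libraries it stood at 6.66 to 8.46 ppm, so that it was higher in both classes of knockout cells. The same order, wild type below Il21-zero below Il21 cells, was seen in each library for Slamf7, a receptor of the SLAM family (12.9 and 6.49 ppm in D, 15.5 and 5.396 in E, 13.7 and 8.34 in F; 2.13 to 3.15 in wild type), and Casz1, a zinc finger transcription factor (20.4 and 9.99, 26.7 and 11.5, 17.95 and 12.2; 1.81 to 2.47 in wild type). Their log2 differences within knockout libraries were 0.97 and 0.88 (limma adjusted p = 0.0373 and 0.0314). Aqp3, a channel for water and glycerol, went another way: 22.03 and 11.9 ppm in D, 70.7 and 29.7 in E, 30.4 and 21.1 in F, and 36.4 to 39.4 in wild type. Its log2 difference was 0.86 (limma adjusted p = 0.0314). The remaining genes among the 12 largest rises were Plcd1 (0.89), Spin2c (0.87), Lpxn, an adaptor of focal adhesions (0.79), Egln3, an oxygen-sensing prolyl hydroxylase (0.75), and Sema4f, a semaphorin (0.67), with limma adjusted p between 0.0176 and 0.044.

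Trat1 encodes a membrane adaptor that associates with the T cell receptor. It was 43.0 ppm in Il21 and 105 in Il21-zero cells of D, 26.7 and 96.6 in E, and 31.0 and 56.7 in F, against 54.1 to 60.7 ppm in wild-type libraries. Every Il21 value lay below every Il21-zero value, and the log2 difference was -1.31 (SE 0.15, limma adjusted p = 0.0158). Nrgn, which encodes a calmodulin-binding protein, was 6.99 and 15.3 ppm in D, 3.57 and 13.2 in E and 4.05 and 9.83 in F (-1.26, SE 0.15, limma adjusted p = 0.0185); in E the Il21 value rests on 6 counts in 5 cells. Nkg7, a granule protein of cytotoxic lymphocytes, was 9.40 and 19.1, 11.3 and 21.6, and 9.4996 and 22.6 ppm in D, E and F, a log2 difference of -0.999 (limma adjusted p = 0.0141).

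Lad1 had the smallest adjusted p of the genes named in this comparison (0.00531, limma) with a smaller difference of -0.60 (SE 0.04). It stood at 119 and 188 ppm in D, 129 and 197 in E, and 111 and 161 in F. Sh2d1a, which encodes SAP, the adaptor behind SLAM receptors, was 116 and 163, 90.9 and 140, and 104 and 138 ppm (-0.50, SE 0.05, limma adjusted p = 0.0141). It fell while 2 SLAM receptors rose, Slamf7 and, with a log2 difference of 0.47, Slamf1. Cd226, an activating receptor, was 29.3 ppm in Il21 and 41.7 in Il21-zero cells of D, 32.1 and 43.7 in E, and 28.6 and 41.97 in F (-0.49, limma adjusted p = 0.0249). The other large falls were Ms4a4b (-0.92), Phlda1 (-0.86), Tnfsf10, which encodes the death ligand TRAIL (-0.71), Eno3, an enolase (-0.55), Apip, an enzyme of methionine salvage (-0.49), and Ifitm2, an interferon-induced membrane protein (-0.48), with limma adjusted p between 0.0144 and 0.0373.

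**Figure D2:**
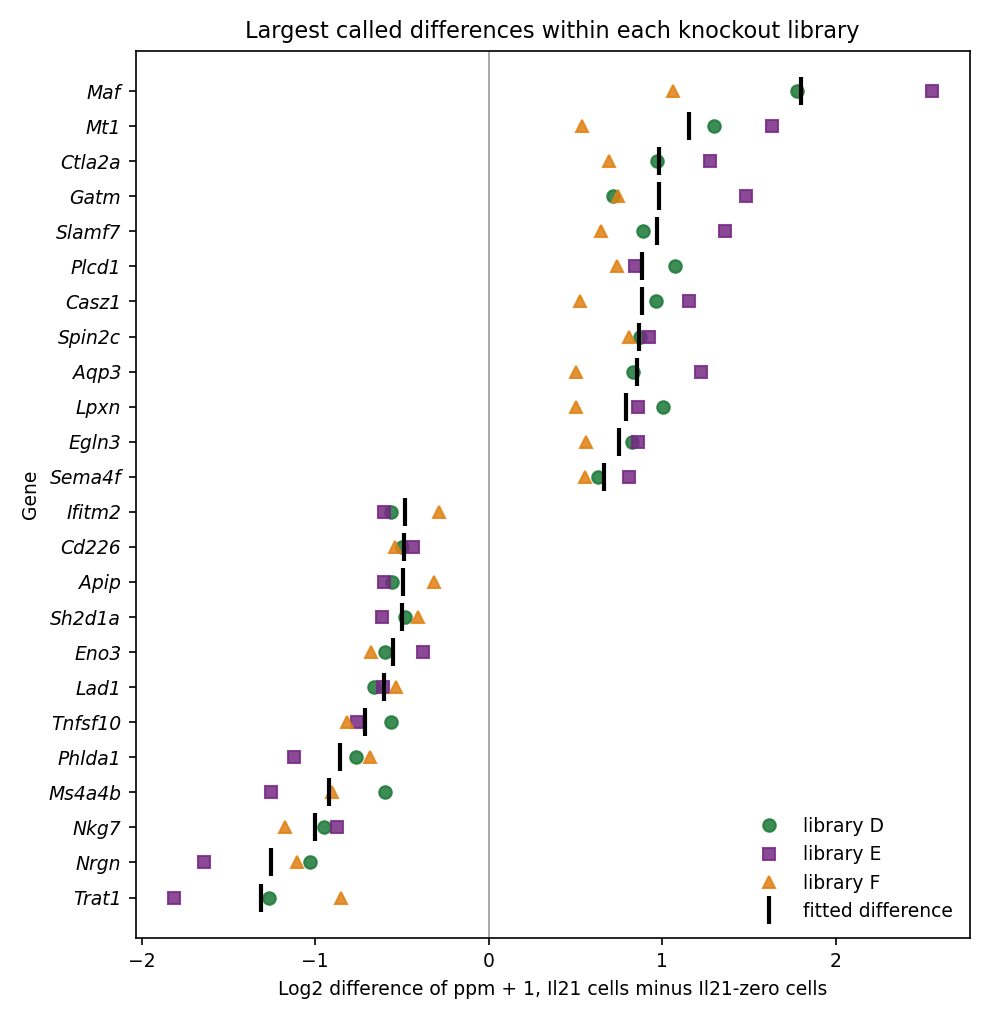
Log2 differences of ppm + 1 between Il21 and Il21-zero cells for the called genes with the 12 largest differences in each direction, by knockout library (points) and fitted over libraries (bars). All points of a gene lie on the same side of 0, and for Maf they run from 1.06 in F to 2.56 in E.

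Among cytokines, Il9, the product for which Th9 cells are known, was higher in Il21 cells of each library but did not pass the test: 1660 and 894 ppm in D, 1553 and 453 in E, 1033 and 742 in F (log2 difference 1.05, SE 0.19, limma adjusted p = 0.0613). It passed in 7 of the 24 alternatives, among them those without E (0.68) and without F (1.33), while its difference shrank to 0.22 when the Il21-zero cells were weighted to the cluster shares of the Il21 cells and to 0.17 within cluster 0. Cells with 10 or more Il9 counts were 42.3%, 36.4% and 34.3% of Il21 cells in D, E and F and 28.6%, 19.0% and 24.9% of Il21-zero cells (exact paired permutation test, p = 0.25; with adjustment over the 15 genes compared in this way 0.625).

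Il13, the type 2 cytokine, went in different directions: 29.8 and 142 ppm in D, 97.5 and 14.3 in E, 56.5 and 62.9 in F (0.11, SE 0.72, limma adjusted p = 0.952). In E, 1 cell held 56.1% of the Il13 counts of the 44 Il21 cells, and in D and F 1 cell held 38.7% and 31.8%. Without E the log2 difference was -1.18 (limma adjusted p = 0.0118) and without D 1.27. Il4, Il5 and Il10 were below the filter of a mean of 5 ppm. Il4 and Il5 stood at 0.594 to 4.57 and 0 to 0.806 ppm in Il21 cells, against 0.93 to 5.52 and 0.639 to 4.27 in Il21-zero cells. Il10 was 0.537, 0.594 and 1.98 ppm in Il21 cells of D, E and F and 0.363, 0.0423 and 0.619 in Il21-zero cells. The Il10 values of Il21 cells rest on 2 counts in D, 1 in E and 66 in F, where 1 cell held 34.8% of them. Ifng, below the filter too, was 11.4 ppm in Il21-zero cells of F and 0.0899 in its Il21 cells, and at 0 in the Il21 cells of D and E.

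Il2, the neighbour of Il21 on chromosome 3 and a growth factor of activated T cells, did not pass the test: 415 and 420 ppm in D, 773 and 440 in E, 612 and 583 in F (0.29, SE 0.13, limma adjusted p = 0.347). Its difference was 0.03 without E and 0.44 without D. Without F it was 0.40 and passed (limma adjusted p = 0.0012), although Il2 was lower in Il21 cells of D and higher in those of E. The pass without F thus shows no common direction. Of the 35 secreted cytokines and chemokines listed, 21 were tested and 1 rose, Ltb, none fell, and the median log2 difference was 0.17, against -0.01 over all 8569 genes. By library this median was 0.03 in D, 0.39 in E and -0.07 in F. In all 3 libraries 5 of the genes (23.8%) were higher and 5 (23.8%) lower, beside 20.1% and 22.8% of all genes tested. Ltb, the membrane-bound lymphotoxin, was 270 and 153 ppm in D, 319 and 198 in E, and 204 and 150 in F (0.65, SE 0.06, limma adjusted p = 0.0141). Its partner Lta and Tnf were higher in each library without passing (0.87 and 0.40, limma adjusted p = 0.0557 and 0.0526), and the chemokine Ccl3 was lower in each (2.15 and 13.7 ppm in D, 14.9 and 21.5 in E, 9.17 and 25.02 in F, limma adjusted p = 0.0748).

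Of 17 tested genes known to regulate Il21, Maf alone rose and none fell, and the median difference was 0.12. In all 3 libraries 7 (41.2%) were higher and none was lower, beside 20.1% and 22.8% of all genes tested. Irf4 was 240 and 214 ppm in D, 234 and 203 in E and 220 and 209 in F (0.15, SE 0.04, limma adjusted p = 0.136). Batf (0.08, SE 0.06), Stat3 (0.12), Rora (0.25, SE 0.13), Nfatc2 (0.21) and Bcl6 (0.01, SE 0.19) did not pass, nor did Ikzf3, the Aiolos factor (0.63, SE 0.11), which was higher in each library with a limma adjusted p of 0.0557. Without library D, Rora stood at 0.42 and Bcl6 at -0.26, and without E they stood at 0.05 and 0.23 and Batf at -0.01. Detection of Irf4 and Batf was near complete in both classes (98.2% to 100% of cells).

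Of 16 Tfh genes tested, Maf rose and Sh2d1a fell, and 5 (31.2%) were higher and 2 (12.5%) lower in all 3 libraries, beside 20.1% and 22.8% of all genes tested. Cxcr5, the receptor that takes Tfh cells to follicles, was at 0.806, 0 and 0.689 ppm in Il21 cells of D, E and F, and Ascl2 at 0.269, 0 and 0.18, both below the filter. Pdcd1 was 35.5 and 33.4 ppm in D, 36.9 and 35.4 in E, and 38.0 and 35.4 in F (0.08, limma adjusted p = 0.573), and Icos differed by -0.08. On these markers the Il21 cells are given no Tfh name here.

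On the receiving side, none of 19 tested genes of the IL-21 receptor and STAT3 pathway passed. In all 3 libraries 9 (47.4%) were higher and 1 (5.26%) lower, beside 20.1% and 22.8% of all genes tested. The median log2 difference was 0.12. Il21r was 63.9 and 63.8 ppm in D, 77.3 and 64.2 in E, and 70.8 and 72.0 in F (0.08, SE 0.07, limma adjusted p = 0.581), with no common direction over the libraries. Socs3, which IL-21 and IL-6 induce, differed by 0.75 (SE 0.25, limma adjusted p = 0.233), and by 0.70 in D, 1.56 in E and -0.02 in F.

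Glycolysis and hypoxia genes were mostly higher in Il21 cells, each by a small amount. Eno3, an enolase outside the glycolysis list, was among the genes that fell (-0.55). Of 19 listed glycolysis genes tested, 4 rose and none fell. In all 3 libraries 18 (94.7%) were higher, beside 20.1% of all genes tested, and the median log2 difference was 0.20. The 4 were Pkm, pyruvate kinase (1189 and 1018 ppm in D, 870 and 753 in E, 1295 and 1142 in F; 0.20, SE 0.02), Pgk1 (0.18), Tpi1 (0.29) and Aldoa (0.15), with limma adjusted p between 0.0144 and 0.0373. Of 16 hypoxia genes, 2 rose, Egln3 (43.0 and 23.8 ppm in D, 21.99 and 11.6 in E, 42.0 and 28.1 in F) and Bnip3l, a mitophagy receptor (0.33), and 14 (87.5%) were higher in all 3 libraries, with a median of 0.29. When the 25% of cells highest in hypoxia genes were left out of both classes, the medians of the 2 lists were 0.01 and 0.11, while Maf stood at 2.01 and Trat1 at -1.16. Pkm, Tpi1, Bnip3l and Atf3 stood at 0.08, 0.13, 0.12 and 0.03 there. The cells left out were picked by their summed counts of the hypoxia list itself. A smaller difference of that list, and of genes that vary with it, is thus partly built into this subset.

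Several lists went the other way without a called gene. Of 59 respiratory chain genes tested, 47 (79.7%) were lower in all 3 libraries, beside 22.8% of all genes tested, with a median of -0.08. So were 16 of 23 (69.6%) genes of amino acid transport and the ATF4 response (median -0.13), 25 of 42 (59.5%) S phase genes (-0.07) and 16 of 30 (53.3%) actin cytoskeleton genes (-0.04). Median-of-ratios scaling moved the median of all genes to -0.03 and gave medians of -0.10 for the respiratory chain and 0.18 for glycolysis. Ribosomal protein genes stood at 0.01. These small medians are counts over genes of the same cells, with no test of the list.

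**Figure D3:**
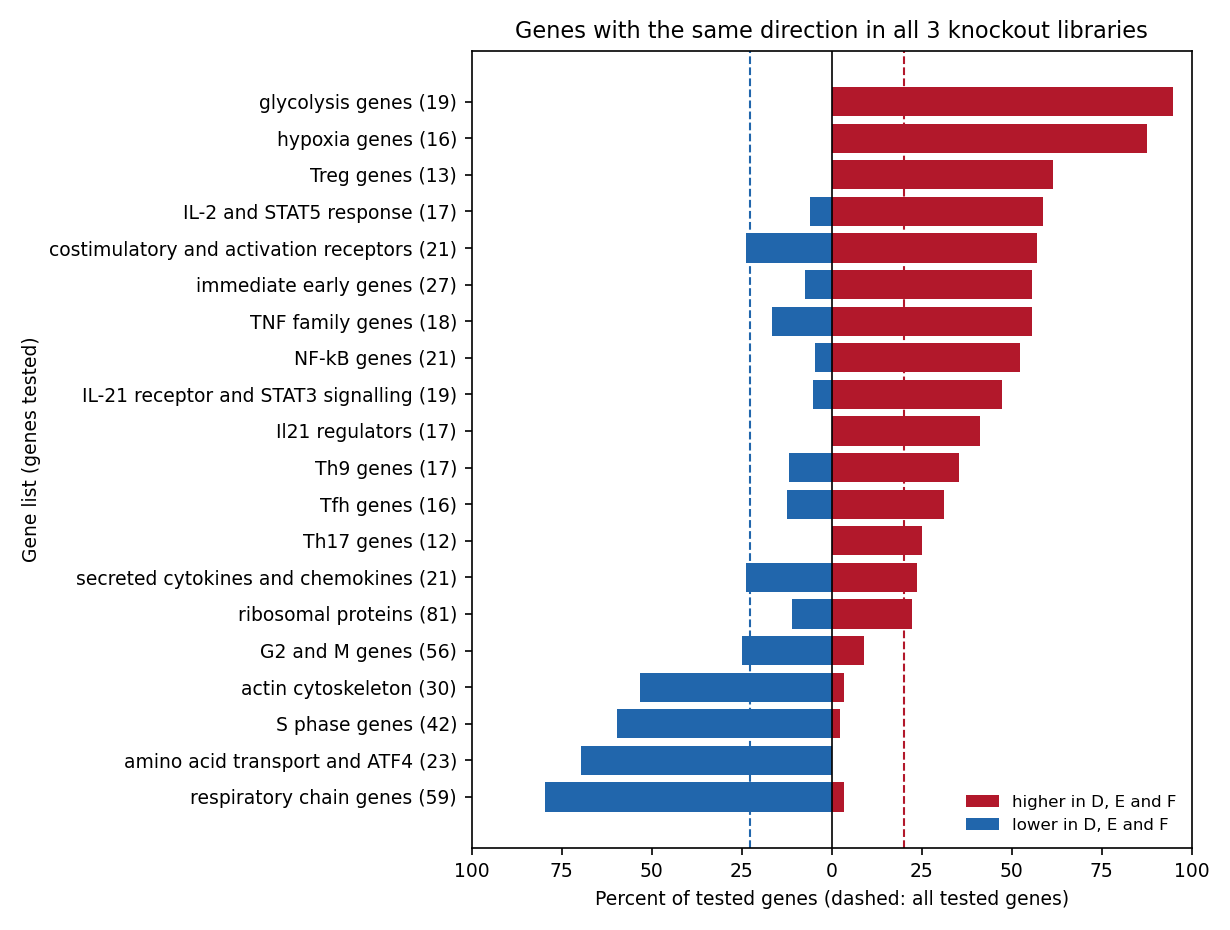
Percent of tested genes of each list that were higher (red, right) or lower (blue, left) in Il21 than in Il21-zero cells in all 3 knockout libraries, with the number of genes tested in brackets and dashed lines at the shares of all tested genes, 20.1% and 22.8%. Glycolysis (94.7%) and hypoxia genes (87.5%) stand far to the right and respiratory chain genes (79.7%) to the left.

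Among receptors and signalling genes the calls went in both directions, where 0.42% of all genes tested rose and 0.315% fell. Higher and lower in all 3 libraries were 57.1% and 23.8% of costimulatory receptors and 61.5% and 0% of Treg genes. For the T cell receptor pathway these shares were 26.5% and 20.6%, and for immediate early genes 55.6% and 7.41%. They were 55.6% and 16.7% for TNF family and 35.3% and 11.8% for Th9 genes, beside 20.1% and 22.8% of all genes. Of 21 costimulatory and activation receptors tested, 2 rose and 3 fell: Slamf1 (0.47) and Cd5 (0.41) against Cd44 (-0.40), Cd226 and Cd83 (-0.43). Cd5, whose level follows T cell receptor signal strength, was 219 and 155 ppm in D, 173 and 130 in E, and 205 and 165 in F. Ctla4, an inhibitory receptor, rose by 0.27 (286 and 229, 186 and 158, 285 and 242 ppm in D, E and F). Of 13 Treg genes, 3 rose, Izumo1r (0.35), Ctla4 and Capg (0.26). Without the 25% of cells highest in hypoxia genes Ctla4 stood at 0.03 (limma adjusted p = 0.862), and the median of the list went from 0.16 to -0.004. Foxp3, the factor that defines regulatory T cells, differed by 0.02 (SE 0.16, limma adjusted p = 0.968). In the T cell receptor pathway 1 of 34 rose, Malt1 (0.43), and 1 fell, Cd3g (-0.24), and of 27 immediate early genes Atf3 (0.58) and Tagap (0.50) rose. Of 18 TNF family genes, Ltb rose and Tnfsf10 and Tnfsf11, which encodes RANKL (-0.45), fell. Batf3 (0.49) was the only one of 17 Th9 genes to pass. Within cells with Il9 under 10, Atf3 differed by -0.21 and Batf3 by 0.17, and within cells with Il9 of at least 10 by 0.65 and 0.18.

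Cblb itself was 16.1 and 18.5 ppm in D, 10.1 and 15.1 in E, and 16.3 and 18.4 in F, and did not pass (-0.29, SE 0.11, limma adjusted p = 0.271). The difference was -0.17 without E and -0.61 near the median depth. Gata3, the type 2 factor, differed by -0.09 (SE 0.04, limma adjusted p = 0.336).

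Because 54.8% of the members had a single Il21 count, levels were also set out by Il21 value. In library F, Maf rose in order from 17.7 ppm in Il21-zero cells to 30.3 (value 1), 40.0 (2), 41.8 (3 or 4) and 62.3 (5 or more). Trat1 went from 56.7 through 35.2, 29.9 and 30.1 to 17.2 ppm, and Lad1 from 161 through 124, 100.9 and 95.7 to 88.3. In D, Maf was 7.92, 19.0, 42.7, 48.6 and 45.7 ppm over the same steps. In E, where only 4 cells had a value of 5 or more, it was 9.89, 23.9, 131, 125 and 12.97. Trat1 fell to 19.6 ppm in D and 6.48 in E at values of 5 or more.

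Il9 was not graded evenly. It lay at 3629 ppm in D and 5141 in E in cells with 5 or more Il21 counts, against 828 to 1618 and 702 to 1327 in cells with 1 to 4, while in F it was 861, 991, 1065 and 1710 over the 4 steps. Over the 36 genes that rose, 28, 28 and 33 were higher in cells with at least 3 Il21 counts than in cells with 1 or 2 in D, E and F, where 54%, 47% and 39.8% of all tested genes were. Of the 27 that fell, 25, 19 and 27 were lower still, beside 46%, 53% and 60.2% of all genes. The cells with at least 3 (27, 13 and 244 in D, E and F) had entered the first comparison, so these counts are not independent of it, and no test was run because E had fewer than 15 such cells. Cells with exactly 1 Il21 count, compared with Il21-zero cells alone, gave no called gene (limma, 804 genes at an unadjusted p under 0.05), and 57 of the 63 called genes kept their sign in every library there. Those cells too had entered the first comparison.

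**Figure D4:**
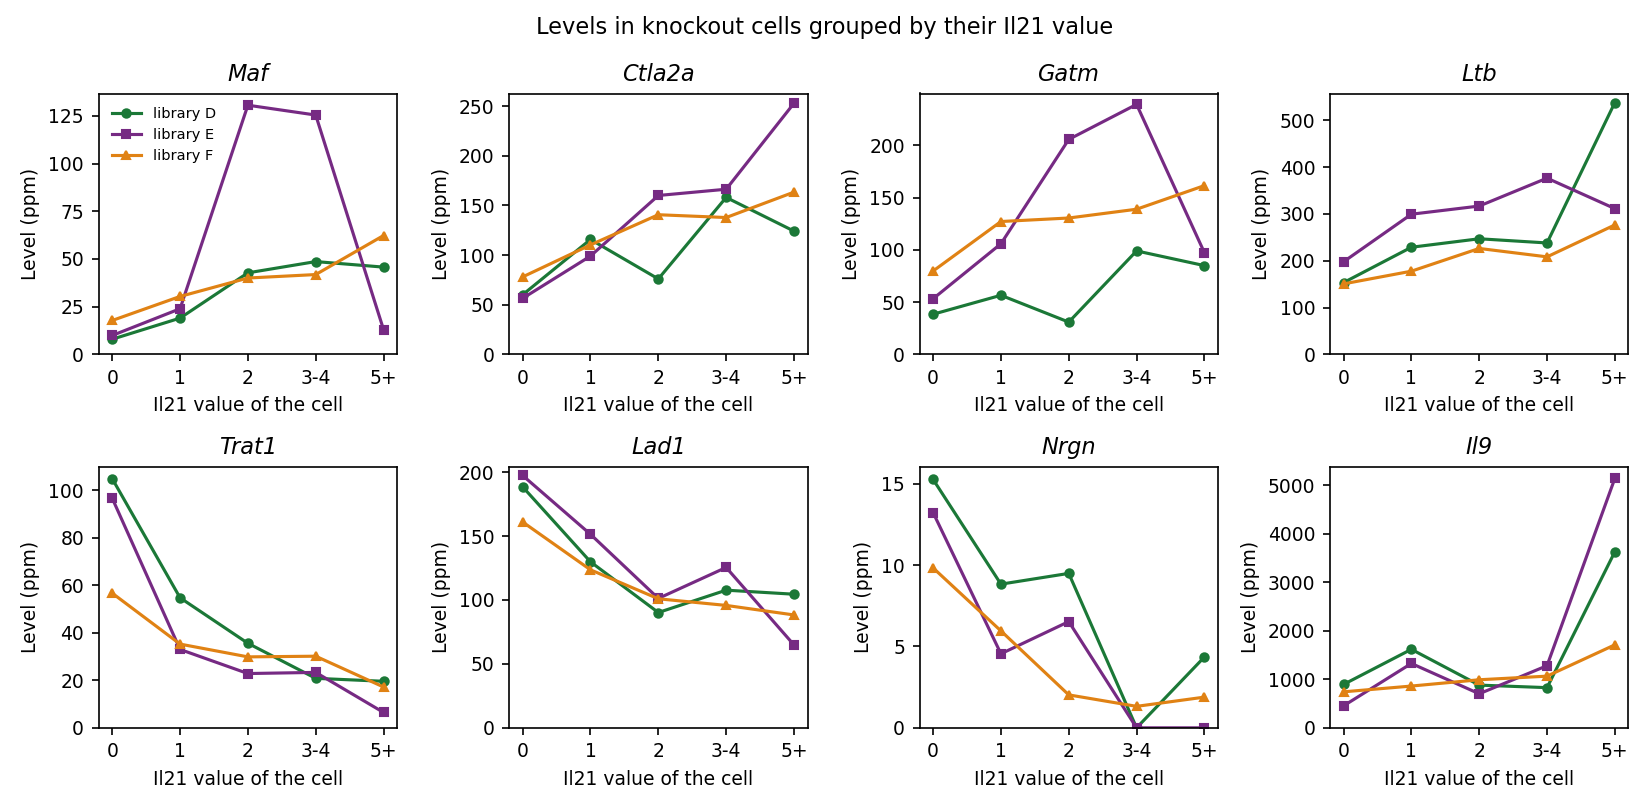
Levels in ppm (linear axes from 0) of 8 genes in knockout cells grouped by their Il21 value, by library. Maf in F climbs from 17.7 to 62.3 ppm and Trat1 drops from 56.7 to 17.2; the points of library E at 5 or more stand for 4 cells.

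Depth was held fixed as well as these corrected counts allow. Among cells within 20% of their library's median raw depth (53, 17 and 445 Il21 cells) no gene was called (limma; 714 at an unadjusted p under 0.05). Of the 62 called genes tested there, 60 kept their sign in every library, and the log2 difference of Maf was 1.65 and that of Trat1 -1.62. These cells had entered the first comparison, so the count of kept signs is not independent of it and decides nothing about depth. Near the median depth Gatm stood at 0.45 (limma adjusted p = 0.58), Sema4f at 0.39 and Bnip3l at 0.21, and Ms4a4b at -1.41 and Phlda1 at -1.56. Without the deepest 5% of cells 16 genes rose and 10 fell. Weighting the Il21-zero cells to the cluster shares of the Il21 cells gave 25 and 22. Within cluster 0, with 42, 17 and 486 Il21 cells, no gene was called (629 at an unadjusted p under 0.05), and Maf differed by 1.33, Trat1 by -1.17, Nkg7 by -0.64, Cd226 by -0.21 and Batf3 by 0.14.

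Il13-high cells of the same libraries, defined by 10 or more Il13 counts and no Il21 count, served as another small cytokine class (285, 83 and 200 cells in D, E and F). Against them, Il21 cells with Il13 under 10 were higher in Maf and Ltb and lower in Csf2, Il3, Il5, Ccl3 and Ccl22. Of 8628 genes, 288 were higher and 523 lower in Il21 cells (3.34% and 6.06%, together 9.4%, limma adjusted p under 0.05). Since an Il13 threshold formed both classes, genes that follow Il13 differ by that choice. Levels in Il21-zero cells with Il13 under 10, many of which hold a few Il13 counts, are set beside those of Maf and Csf2. For Aqp3, Ctla2a, Lpxn, Gatm and Spin2c the order of the classes is given. The other genes are given against Il13-high cells alone, and the part of the Il13 threshold in them was not tested. The classes share their libraries and, with the first comparison, most of their Il21 cells.

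Maf was 30.2, 66.4 and 38.7 ppm in these Il21 cells of D, E and F, 2.28, 3.46 and 4.16 in Il13-high cells, and 8.46, 9.99 and 18.4 in cells with Il21 at 0 and Il13 under 10 (Il21 against Il13-high: 3.37, SE 0.19, limma adjusted p = 4.22e-05). Its order, highest in Il21 and lowest in Il13-high cells, held in each library. Aqp3 had the same order, with 22.5, 74.0 and 31.2 ppm against 2.55, 6.29 and 5.46 in Il13-high cells (2.80, SE 0.19), as did Ctla2a (1.78), Lpxn (1.51), Gatm (1.49) and Spin2c (1.48). Ltb was 270, 322 and 207 ppm in Il21 and 85.9, 124 and 84.9 in Il13-high cells (1.43, SE 0.07, limma adjusted p = 4.22e-05). Lair1, Nt5e, which encodes the ectoenzyme CD73, Trib2, Gpr83, Nppc and Il1rn, the IL-1 receptor antagonist, were the other large rises (1.49 to 1.81).

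Csf2, which encodes GM-CSF, was 11.3, 5.74 and 7.66 ppm in Il21 cells and 190, 215 and 178 in Il13-high cells (-4.44, SE 0.17, limma adjusted p = 4.38e-06). Il21-zero cells with Il13 under 10 stood at 24.6, 12.5 and 10.3 ppm, above the Il21 cells in each library. The chemokine Ccl22 was 6.04, 8.30 and 1.83 against 79.1, 76.7 and 48.8 ppm (-3.57), and Il5, a type 2 cytokine, 0.823, 0 and 0.496 against 32.0, 10.1 and 10.4 (-3.52). Other large falls were Il3 (-3.76), Ccl3 (-3.72), Cyr61 (-3.32), Penk (-2.59), Il12a (-2.43), Cd70, a TNF family ligand (-2.31), Ccl4 (-2.19), Idi2 (-2.18) and Nrgn (-2.07), all with limma adjusted p of 0.01 or less. Gata3 was lower in Il21 than in Il13-high cells by 0.58 (SE 0.06) and Il9 by 0.71 (SE 0.08, limma adjusted p = 0.0015), with 1463, 1086 and 990 ppm against 1955, 2107 and 1673. Irf4 was higher by 0.30 (SE 0.05). In the first comparison, against all Il21-zero cells, the log2 differences of Gata3, Il9 and Irf4 were -0.09, 1.05 and 0.15.

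The Il9-high cells, defined by 10 or more Il9 counts and no Il21 count, were the larger class (949, 1067 and 1126 cells). Against them the 56, 28 and 573 Il21 cells with Il9 under 10 differed in 277 higher and 257 lower genes of 8568 (3.23% and 3%, together 6.23%). The largest differences were Ccl20, a chemokine for CCR6-bearing cells (2.71), Maf (1.99), Ms4a6b (1.77), Bcl6 (1.75), Il2 (1.69) and Csf1 (1.64) upward, and Il13 (-2.81), Akr1c18 (-2.50), Ccl17 (-2.42) and Batf3 (-1.85) downward, with limma adjusted p between 8.43e-06 and 0.0176. The choice of low against high Il9 enters these differences, so for some of these genes the levels in Il21-zero cells with Il9 under 10 are given too. Most of those cells still hold Il9 transcripts, since 73.0%, 63.3% and 86.7% of all Il21-zero cells in D, E and F had an Il9 count. Ccl20 was 166, 158 and 93.2 ppm in the Il21 cells with low Il9 and 19.5, 16.1 and 24.8 in Il9-high cells, but 70.8, 78.2 and 96.3 in Il21-zero cells with low Il9. Il2 was 535, 642 and 701 ppm, 192, 179 and 207 in Il9-high cells, and 512, 502 and 707 in Il21-zero cells with low Il9. Bcl6 was 11.6, 6.56 and 7.57 ppm, 1.96, 1.58 and 1.79, and 6.55, 7.01 and 8.02 in the same classes.

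Of the 24 genes with the largest changes against Il9-high cells, 22 were tested among cells with Il9 under 10, Il21 against Il21-zero, and 2 passed there, Maf and Phlda1. Maf was 30.3, 86.2 and 36.8 ppm in Il21 cells with low Il9 and 28.7, 22.9 and 40.9 in those with high Il9, against 8.08, 10.2 and 17.3 and 7.55, 8.45 and 19.2 in the matching Il21-zero cells. Its log2 difference was 1.93 within low-Il9 cells (limma adjusted p = 0.0368) and 1.39 within high-Il9 cells (limma adjusted p = 0.0776). Phlda1 was lower with Il21 at either Il9 level (27.9, 34.7 and 17.1 against 59.5, 63.9 and 30.0 ppm at low Il9; 52.9, 27.8 and 29.1 against 82.4, 101.03 and 48.7 at high Il9), and did not pass at high Il9 (limma adjusted p = 0.18). In all, 9 genes rose and 9 fell within low-Il9 cells and 1 rose, Ltb, and none fell within high-Il9 cells, where 771 genes had an unadjusted p under 0.05 (limma). Both restrictions were added after the data had been seen. Gata3 (-0.38, SE 0.06) and Foxp3 (-1.12, SE 0.20) were lower in Il21 cells with Il9 under 10 than in Il9-high cells. Among cells with Il9 under 10, Il21 against Il21-zero, Gata3 differed by -0.08 (limma adjusted p = 0.599) and Foxp3 was not tested. In the first comparison Foxp3 differed by 0.02.

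**Figure D5:**
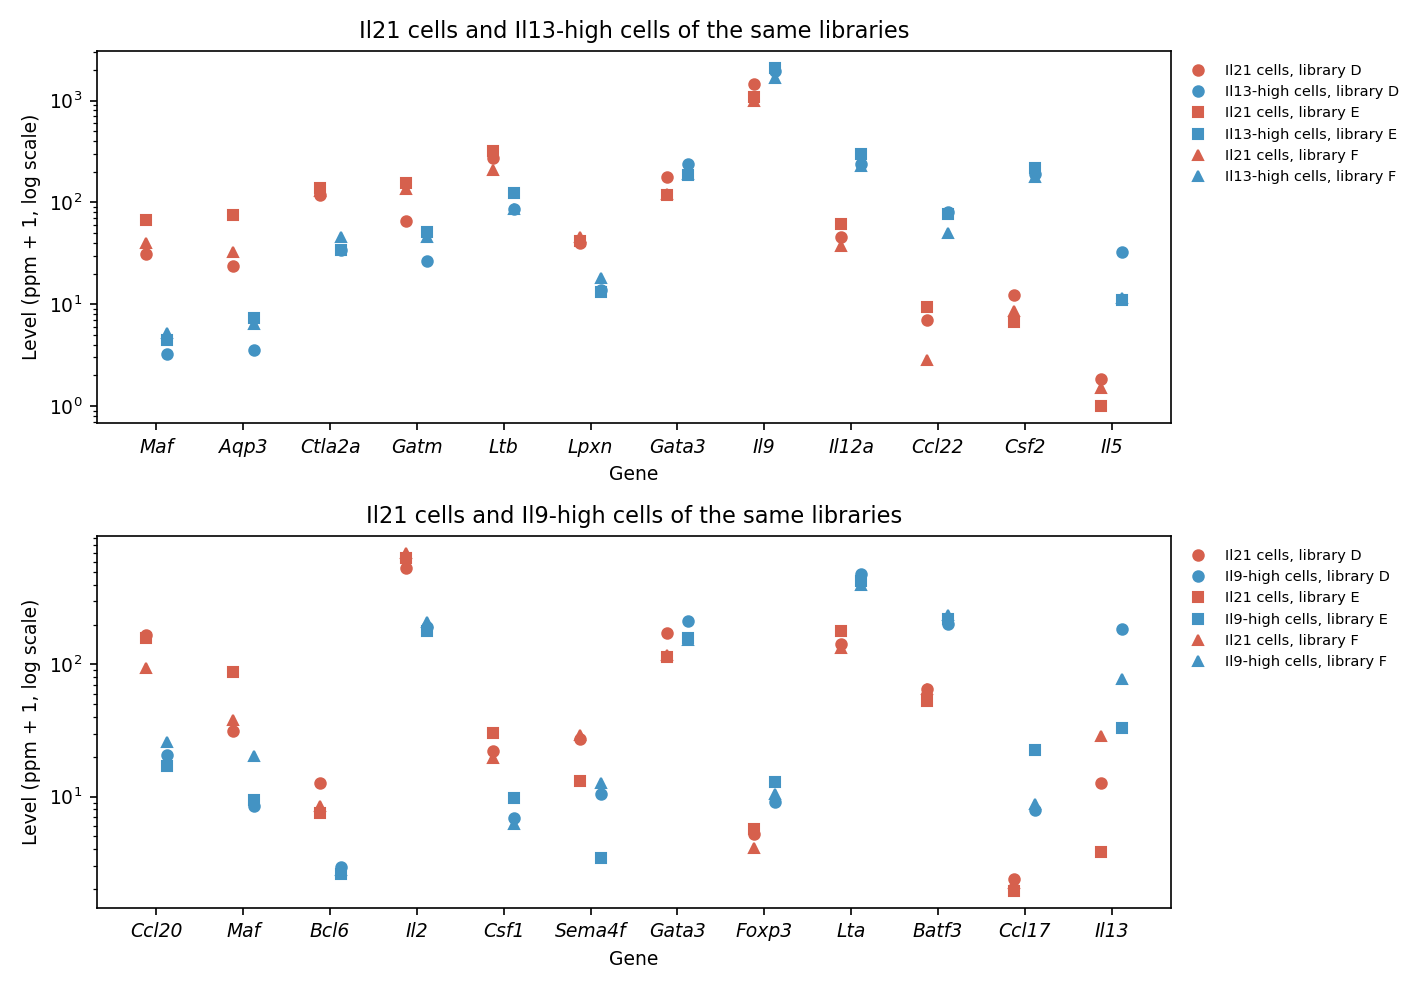
Levels (ppm + 1, log axis) of 12 genes in Il21 cells (red) beside Il13-high cells (blue, top) and Il9-high cells (blue, bottom) of the same knockout libraries; circles are D, squares E and triangles F. Maf is higher in Il21 cells in both panels, and Csf2 lies near 200 ppm in Il13-high cells against 5.74 to 11.3 in Il21 cells.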

How the data were processed

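Single-cell expression was measured in 6 libraries. Cell Ranger 3.0.2, Seurat 3.0.0 and the build mm10 are named, without their roles, per the submitters' processing notes. The authors' deposited table holds a score per gene and cell, a count corrected for depth by sctransform per the file headers, so no count model was used. It also holds each cell's raw UMI count and percent of mitochondrial UMIs, per the file headers, and the authors' clusters. Cells had been filtered before deposit (at least 15006 UMIs, at most 15.2% mitochondrial). No doublet caller was run, since raw counts per gene were not used here. The table names libraries by index and genotype only, so they carry letters.

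Corrected counts were summed per library and class, scaled to ppm without Il21, and put on the log2(ppm + 1) scale. Genes that averaged 5 ppm or more were tested two-sided in R 4.3.3 by limma 3.58.1, its prior variance following a trend. Fold changes on this scale understate changes of low genes. Both classes come from the same library, which is the block. The fit was tested on simulated data. Named genes are the 12 largest rises and falls among called genes with 1 sign in every library (without receptor segments and Y-linked, mitochondrial, ribosomal and unnamed genes), 15 fixed genes, and the 3 largest called changes of each of 49 lists; the text names some of these, and further list members with values. The members, lists and rules were chosen with earlier results of these data known. Shares were compared with exact paired permutation tests (scipy 1.17.1), whose smallest p for 3 pairs is 0.25. Alternatives covered the block, libraries, Il21 threshold, clusters, depth, scaling, pseudocount, filter and prior. Some genes that were tested are not reported here.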

Additional observations from a re-analysis of the deposited data

How the results depend on the processing

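The 27 falling and 36 rising genes of the first comparison depend on the estimate of spread. Leaving out each library in turn gave 24 to 229 higher and 13 to 167 lower genes. The fit with no replicate block gave 0 and 0, no trend in the prior 0 and 0, and array weights 301 and 301. An Il21 value of at least 3 gave 14 and 6, and exactly 1 gave 0 and 0. Cluster 0 alone gave 0 and 0, cells within 20% of the median depth 0 and 0, cells without the deepest 5% 16 and 10, and cells without the 25% highest in hypoxia genes 9 and 13. Added after the data were seen, Il9 under 10 gave 9 and 9 and Il9 of at least 10 gave 1 and 0, and leaving out shared barcodes changed neither count. Fewer cells enter each of these subsets, and the part of cell number was not tested. Other scalings, pseudocounts of 0.1 and 10, filters at 1 and 20 ppm, an Il21 value of at least 2 and cluster weighting stayed within 1.5 times of both counts.

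Against Il13-high cells, leaving out each library gave 184 to 637 higher and 346 to 1137 lower genes, and no replicate block 48 and 98. Against Il9-high cells the ranges were 113 to 641 and 100 to 552, no replicate block gave 52 and 25, and an Il9 value of at least 50 gave 426 lower genes. Signs turned at least once for 3 of the 44 called genes followed through the alternatives and for 8 of the 11 genes followed that were not called, among them Il13 in 10 alternatives (-1.97 with Il9 under 10, -1.84 in cluster 0), Foxp3 in 8, Bcl6 in 6 and Rora in 1 (-0.24 with Il9 of at least 10). The turns with a change of call, or of a called gene, were those for Il13 without library E (-1.18, with 1.27 without library D), for Atf3 in cluster 0 (-0.32) and with Il9 under 10 (-0.21), and, without the 25% highest in hypoxia genes, for Pgk1 (-0.0072) and H2-Ab1 (-0.14); the cause was not tested.

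With a value of at least 3 in place of 1, the difference in the share of cells, Il21 minus Il21-zero, was 0.128 percentage points for Il10, 2.55 for Il2, 11.3 for Maf, 4.06 for Batf, 3.36 for Irf4 and -0.662 for Foxp3. Near the median depth it was 0.539 for Il10 and -3.136 for Il21r. For cells with at least 3 Il21 counts the differences in cluster shares were -14.08 points in cluster 0, 25.1 in cluster 2 and 0.44 in cluster 3, and that in the deepest 5% was 2.235. Cells with at least 3 Il21 counts made up 0.789%, 0.23% and 4.52% of D, E and F and 0% of A, B and C.

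The comparison of at least 3 with 1 or 2 Il21 counts, with its alternatives, was not run, since library E had 13 such cells. The library block is the only pairing; the table gives no replicate number. Library E enters with 44 Il21 cells and D with 97, which limits the precision of every sum there.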
